A study of Ovis aries with 23 samples.

Results

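CHGA (ENSOARG00000013347) is the sheep gene for chromogranin A and was followed here on its own. It was taken by its gene identifier, not by its values, and is 1 of the 25197 genes counted in each of 23 RNA-seq samples of the pituitary pars tuberalis (PT).

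Chromogranin A is an acidic, calcium-binding glycoprotein of the granin family. Endocrine and neuroendocrine cells store it in dense-core secretory granules beside their hormones, where it takes part in granule formation, and prohormone convertases cut it into shorter peptides that are released with the hormone. The PT is the part of the anterior pituitary that wraps the pituitary stalk and reads day length through nocturnal melatonin. Its thyrotrophs make the alpha (CGA) and beta (TSHB) subunits of thyrotropin, and the coactivator EYA3 raises TSHB transcription on long photoperiods (LPs).

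All samples are from castrate male Scottish blackface sheep. The 4 groups are short photoperiods (SPs; 5 samples) and LPs for 1, 7, or 28 days after SPs (6 samples each). The question was how PT transcripts change after transfer from SPs to LPs. The labels number the samples but do not say whether each is 1 animal, so p-values measure the spread between these samples, which may be technical. The study singled CHGA out as a marker of SPs from data that include these samples, so its decrease from SPs to LPs is no independent evidence for that role. The paper also drew on RNA-seq of a further experiment and on antibody staining. It reported CHGA protein as enhanced on SPs, suppressed on LPs, and confined within the PT to the putative thyrotrophs.

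Total counts per sample ran from 307952 in LP day 1 sample 4 to 4413929, with a median of 3332320. The prolactin gene (PRL), the hormone of pars distalis lactotrophs, held 2.35% to 21.0% of the counts of a sample. The 8 pars distalis marker genes fixed for this work, PRL included, summed to 35061 to 141041 CPM (counts normalized to library size) on SPs. They summed to 46699 to 271193 CPM on LP day 1, 46616 to 176792 CPM on LP day 7, and 74700 to 272796 CPM on LP day 28. None of them was at 0 in any group. The melatonin receptor gene MTNR1A, a defining gene of the PT, was low, with group means from 5.59 to 17.8 CPM. In bulk tissue, fewer cells of a type and less RNA per cell cannot be told apart. LP day 1 samples 3 and 4 had the lowest chi-square per gene of any pair within a group, 1.14 over 13202 genes (p = 2.79e-28, chi-square test against counting noise). This value falls with depth, and the other pairs with the shallow sample 4 stood at 1.75 to 7.16. It therefore does not rank pairs of unequal depth by likeness. Samples 1, 2, 3, and 5 of that day, however, each had at least 2850268 counts. With sample 4 they gave 3.37, 7.16, 1.14, and 5.62, so sample 3 was the nearest to sample 4 among them. Whether samples 3 and 4 are independent is not given in the labels and was not tested. They were kept as 2 samples.

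CHGA fell on LPs: it was highest on SPs, its mean was lower on each later LP day, and it was lowest on LP day 28, at 31.0% of the SP mean. On SPs, CHGA stood at 4292, 3632, 2629, 2776, and 3591 CPM in samples 1 to 5, after trimmed mean of M-values (TMM) normalization over all samples. On LP day 1, the 6 samples read 2092, 1774, 3548, 3157, 2593, and 3434 CPM. Samples 3, 4, and 6 of that day lay within the SP range, and samples 1, 2, and 5 lay below the lowest SP sample. On LP day 7, the values were 1317, 1578, 1313, 1299, 1626, and 2069 CPM. On LP day 28, they were 1391, 793, 889, 852, 1121, and 1256 CPM. Every sample of LP days 7 and 28 was thus below every SP sample, and every sample of LP day 28 was also below every sample of LP day 1. Neighboring LP days overlapped, since LP day 7 sample 6 was above LP day 1 sample 2 and LP day 28 sample 1 was above 3 samples of LP day 7.

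**Figure D1:**
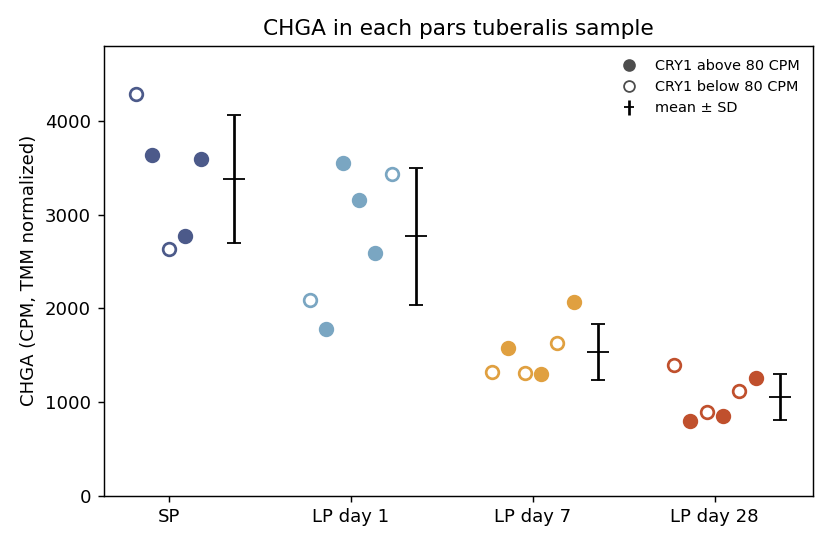
CHGA in CPM after TMM normalization, on a linear axis from 0, for each sample in order of its number within SP and LP days 1, 7, and 28. Filled points are samples with the clock gene CRY1 above 80 CPM, open points those below, and bars are the mean ± SD. All samples of LP day 7 (1299 to 2069 CPM) and LP day 28 (793 to 1391 CPM) lie below the lowest SP sample (2629 CPM), and filled and open points mix in every group.

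Group means were 3384 ± 684 CPM on SPs (SD, n = 5), 2766 ± 732 on LP day 1, 1534 ± 299 on LP day 7, and 1051 ± 243 on LP day 28 (SD, n = 6 each). As a percent of the SP mean these are 81.7, 45.3, and 31.0. Of the drop in mean CPM between SPs and LP day 28, 26.5% had been reached on LP day 1 and 79.3% on LP day 7. The coefficient of variation was 20.2%, 26.5%, 19.5%, and 23.1% in the order of the groups.

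In the quasi-likelihood test of edgeR, adjusted over all genes by the Benjamini-Hochberg method, CHGA was lower than on SPs by 2.21-fold on LP day 7 (log2 fold change -1.14, SE 0.14, FDR 0.00215) and by 3.23-fold on LP day 28 (-1.69, SE 0.15, FDR 1.28e-05). In these comparisons 0.266% of 15030 and 0.67% of 14929 genes tested passed an FDR of 0.05 in either direction, and 0.0732% and 0.248% passed as lower. CHGA ranked 4 and 3 by the test statistic. By size of decrease it ranked 79 and 16. Of the genes tested, 0.778% on LP day 7 and 0.871% on LP day 28 lay entirely below the SP samples, as CHGA did.

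The first long day gave no call. CHGA stood at a log2 fold change of -0.29 there (SE 0.18, 95% interval -0.67 to 0.09), with an FDR of 1.00 in edgeR's quasi-likelihood test and 3 of 6 samples below the lowest SP sample. The test called 0 (0%) of 14920 genes in that comparison, with 497 genes at an unadjusted p under 0.05, whereas edgeR's exact test called 7 and DESeq2 called 2. A decrease of the size seen on LP day 7 lies outside that interval. With samples 3 and 4 of LP day 1 summed and counted as 1, the log2 fold change was -0.34, again not called.

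Between LP days, CHGA was lower on LP day 28 than on LP day 1, with a log2 fold change of -1.40 (SE 0.17) and an FDR of 2.89e-04 in edgeR's quasi-likelihood test, in which 0.216% of 14820 genes passed, 0.0405% as lower and 0.175% as higher. Of these genes, 0.196% lay entirely below LP day 1, as CHGA did. The 2 single steps between LP days missed the threshold. LP day 7 stood at -0.86 (SE 0.17) against LP day 1, with an unadjusted p of 6.51e-05 and an FDR of 0.178, where 0.0201% of 14897 genes passed. CHGA ranked 5 by the test statistic there, and the exact test and DESeq2 called it with FDRs of 0.00569 and 0.00221. LP day 28 stood at -0.54 (SE 0.14) against LP day 7, with an FDR of 0.335 and 0.00672% of 14890 genes called. In the order of the levels, each pair of neighboring groups therefore missed the threshold of this test, and the groups further apart passed it.

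CHGA is among the most counted genes of these samples. The paper also ties CHGA to gonadotrophs and somatotrophs of the pars distalis, whose hormone genes LHB, FSHB, and GH1 were counted here as well. Which cells the CHGA counts come from was not tested. It had 1064 to 16206 counts per sample. Its share of all counts was 0.342% ± 0.0782 on SPs (SD, n = 5), 0.286% ± 0.0909 on LP day 1, 0.159% ± 0.0347 on LP day 7, and 0.100% ± 0.0251 on LP day 28 (SD, n = 6 each). The highest share was 0.439% in SP sample 1 (95% Wilson interval 0.432 to 0.446), and the lowest was 0.0760% in LP day 28 sample 4 (0.0731 to 0.0790). These intervals cover counting error only, since the reads carry no molecular identifiers and need not be independent molecules, and they are far narrower than the spread between samples. Ordered by counts, which favor long transcripts, CHGA held rank 7 to 15 in the SP samples, 9 to 20 on LP day 1, 16 to 38 on LP day 7, and 36 to 83 on LP day 28. The shallowest sample, LP day 1 sample 4, still had 1064 CHGA counts and a share of 0.346% (0.325 to 0.367).

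Because a share depends on the other genes, CHGA was also divided by other hormone genes within each sample. These ratios need no scaling between samples, and only their change between groups is read, since the genes differ in length. Against CGA, the subunit that thyrotrophs and gonadotrophs share, the ratio of counts was 0.588, 0.395, 0.279, 0.349, and 0.446 in SP samples 1 to 5. On LP day 28, all 6 ratios lay between 0.0870 and 0.145, below every SP sample. The geometric mean went from 0.399 on SPs to 0.338 on LP day 1, 0.220 on LP day 7, and 0.115 on LP day 28. Exact two-sided permutation tests, adjusted over 9 ratio tests, gave log2 differences from SPs of -0.24 (SE 0.29, adjusted p = 0.562), -0.86 (SE 0.24, adjusted p = 0.0195), and -1.79 (SE 0.22, adjusted p = 0.0130). For 5 samples against 6 the smallest unadjusted p is 0.00433, which the LP day 28 ratio reached.

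CGA itself gave no call. It stood at 8384 ± 892 CPM on SPs (SD, n = 5) and at 8955 ± 834 CPM on LP day 28 (SD, n = 6), a log2 fold change of 0.09 (SE 0.09) with an FDR of 0.694 in edgeR's quasi-likelihood test. On LP day 7 it was 6970 ± 1397 CPM, and on LP day 1 it ranged from 3886 to 11559 CPM. CHGA was called lower on LP days 7 and 28, whereas CGA was called in no comparison.

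Pars distalis genes varied widely between samples. PRL averaged 72142 ± 37286 CPM on SPs and 153866 ± 70924 CPM on LP day 28, a log2 fold change of 1.09 (SE 0.37, FDR 0.192 in edgeR's quasi-likelihood test). The means of POU1F1, TBX19, and GNRHR were also higher on LP day 28, whereas those of GH1, POMC, LHB, and FSHB were lower, none of them called. The paper used circulating prolactin as an endocrine marker that is low on SPs. The PRL ratio and covariate below may therefore follow photoperiod as well as tissue share, and which of these they follow was not tested. Against PRL, the CHGA ratio differed from SPs by -2.82 on the log2 scale on LP day 28 (SE 0.62, adjusted p = 0.0130, exact permutation test, 6 of 6 samples below the lowest SP sample). The difference on LP day 7 was -1.01 (SE 0.67, adjusted p = 0.247). With the log2 CPM of PRL as a covariate in the edgeR fit, CHGA fell from SPs by 1.16 on LP day 7 (SE 0.13, FDR 7.42e-04) and by 1.58 on LP day 28 (SE 0.19, FDR 9.82e-04). Among deviations of the 23 samples from their group means, CHGA and PRL had an r of -0.52 (p = 0.0272 by permutation, adjusted p = 0.40 over 24 relations) and a rho of -0.44 (p = 0.0589). Without the 2 samples farthest from the median, r was -0.59. Single LP days gave an r of -0.86 on LP day 1 (p = 0.0333, exact permutation test), -0.40 on LP day 7 (p = 0.447), and 0.13 on LP day 28 (p = 0.849), and without the 2 farthest samples of each day r was -0.95, 0.96, and -0.88. The adjusted p over the 24 relations was 0.40 or more for each day.

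The other pars distalis genes gave no call. Growth hormone (GH1) averaged 19488 CPM on SPs and 18917 on LP day 28, the corticotroph precursor POMC 4065 and 3841, and the lineage factor POU1F1 121 and 172. The gonadotropin beta subunits were at 4680 and 3569 CPM for LHB (FDR 0.244) and at 583 and 346 CPM for FSHB (FDR 0.158), by the same edgeR test. Of the 8 pars distalis markers, 0 passed against SPs on any LP day, whether by the quasi-likelihood test, the exact test, or DESeq2, beside 0%, 0.266%, and 0.67% of all genes by the first test on LP days 1, 7, and 28. At an unadjusted p under 0.05 stood 0 of the 8 on LP day 1, LHB and FSHB on LP day 7, and PRL, LHB, and FSHB on LP day 28, beside 497 of 14920, 2157 of 15030, and 2063 of 14929 genes tested. Of the 4 measured folliculostellate markers (S100B, ALDH1A1, GFAP, and VIM), of the 4 fibroblast markers, and of the single measured markers of neurons (NEFM), tanycytes (DIO2), and immune cells (PTPRC), 0 passed the quasi-likelihood test as well. At an unadjusted p under 0.05 stood NEFM and PTPRC on LP day 1, VIM, DIO2, and the fibroblast gene DCN on LP day 7, and the collagen genes COL1A1 and COL3A1 on LP day 28. DESeq2 called COL3A1 on LP day 28, and the exact test called no gene of these lists. The summed folliculostellate genes stayed within 1316 to 2349 CPM over all samples. No endothelial marker could be paired with an identifier.

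CHGA was next set beside the other granins and granule genes, to see whether the secretory machinery of these samples moved with it. Gene symbols were known only for genes that the study had called in some comparison, so 40 of the 105 listed genes could be examined, and they are a selected set. CHGB, the granin most like CHGA in structure, stood at 3224 ± 298 CPM on SPs (SD, n = 5), 2293 ± 420 on LP day 7, and 2578 ± 476 on LP day 28 (SD, n = 6 each). Its log2 fold changes were -0.49 (SE 0.11, FDR 0.0665) and -0.33 (SE 0.11, FDR 0.215) in edgeR's quasi-likelihood test, and the lowest SP sample, at 2876 CPM, was below 1 sample of LP day 7 and 2 samples of LP day 28. SCG3, which binds chromogranin A to the granule membrane, was 584 ± 127 CPM on SPs and 806 ± 89.6 CPM on LP day 28 (log2 fold change 0.46, SE 0.13, FDR 0.104). VGF, a granin-like precursor of neuropeptides, went the opposite way from CHGA and rose. It read 126, 94.8, 96.1, 64.8, and 87.2 CPM on SPs and 349, 108, 210, 159, 399, and 194 CPM on LP day 28, so that only LP day 28 sample 2 lay within the SP range. Its log2 fold change was 1.33 (SE 0.27) with an FDR of 0.0293 in edgeR's quasi-likelihood test, by which 0.422% of genes were higher, and that call was lost under 6 of 19 other settings. VGF also split by CRY1 state. In every group its samples below 80 CPM of CRY1 read higher than those above, on LP day 28 at 210 to 399 against 108 to 194 CPM. By the same test its log2 fold change was 0.90 in samples above (SE 0.21, FDR 0.134) and 1.51 in samples below (SE 0.24, FDR 0.0328). The difference between both sets was not tested, and the share of all genes that split in this way was not computed. Of the 4 granins measured, then, 1 was lower, 1 was higher, and 2 did not pass on LP day 28. DESeq2 also called SCG3 on LP day 28, and both the exact test and DESeq2 called CHGB on LP day 7. The median log2 fold change of the 4 granins on LP day 28 was 0.07, against -0.01 over all genes tested. SCG2 was not paired.

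The genes listed for prohormone processing, not all of them shown to act on granins, gave 0 calls among 4 measured genes on any LP day. This was by edgeR's quasi-likelihood test, where 0%, 0.266%, and 0.67% of all genes passed on LP days 1, 7, and 28. At an unadjusted p under 0.05 stood 1, 2, and 2 of the 4 genes, beside 497 of 14920, 2157 of 15030, and 2063 of 14929 over all genes tested. PCSK1, the convertase of the regulated pathway, averaged 302 ± 61.3 CPM on SPs and 511 ± 289 CPM on LP day 28 (FDR 0.236), where LP day 28 sample 1 reached 1053 CPM. PCSK2, its partner, averaged 112 and 126 CPM (FDR 0.857). Carboxypeptidase D (CPD), a trans-Golgi enzyme, came nearest the threshold, with a log2 fold change of 0.77 on LP day 28 (SE 0.18, FDR 0.0634 in edgeR's quasi-likelihood test). The exact test and DESeq2 called CPD on LP days 7 and 28 and carboxypeptidase Z (CPZ) on LP day 7. The median log2 fold change of the 4 genes on LP day 28 was 0.61. CPE was not paired.

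Among granule membrane genes, BAIAP3, a Munc13-related protein of dense-core vesicle traffic, was lower on LP day 28. Its SP samples read 958, 891, 845, 708, and 524 CPM, and its LP day 28 samples lay between 409 and 544 CPM, overlapping only SP sample 5. The log2 fold change was -0.75 (SE 0.13) with an FDR of 0.0113 in edgeR's quasi-likelihood test, and the call was lost under 4 of 19 other settings. By contrast with CHGA, which was called lower on LP day 7, BAIAP3 then stood at 680 ± 110 CPM, with a log2 fold change of -0.21 and an FDR of 0.537. PTPRN, a granule membrane protein, went from 691 ± 120 to 933 ± 247 CPM (FDR 0.268), and SYT4, a vesicle synaptotagmin, from 98.0 ± 14.9 to 156 ± 58.8 CPM (FDR 0.120). The measured exocytosis genes SYT5 and UNC13A, a vesicle priming factor, did not pass. The log2 fold change of SYT5 was -0.38 and -0.31 on LP days 7 and 28, and that of UNC13A was 0.92 (SE 0.22, FDR 0.0763 in edgeR's quasi-likelihood test) and 0.55 (SE 0.14, FDR 0.0710). The exact test and DESeq2 called UNC13A on both days, and DESeq2 called SYT4 on LP day 28. EGR1, the only transcription factor measured of those listed for the CHGA promoter, averaged 76.6 CPM on SPs and 121 CPM on LP day 28 (FDR 0.253).

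**Figure D2:**
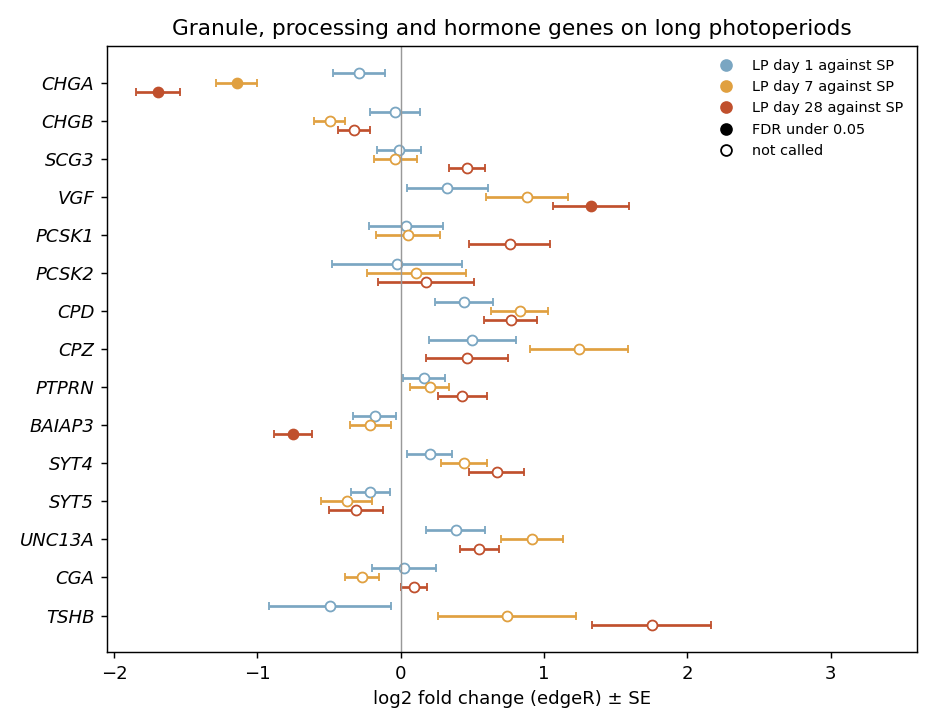
Log2 fold change against SPs from edgeR (horizontal axis, bars ± SE) for the measured granin, processing, granule, and exocytosis genes and for CGA and TSHB (rows), on LP days 1, 7, and 28 (colors). Filled points passed an FDR of 0.05. CHGA lies furthest to the left, at -1.14 and -1.69, VGF (1.33) and BAIAP3 (-0.75) pass on LP day 28, and all other points shown are open.

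TSHB is the hormone gene of the LP thyrotroph and was highest where CHGA was lowest, on LP day 28. It read 207, 664, 47.0, 625.5, and 265 CPM in SP samples 1 to 5. It lay between 174 and 394 CPM on LP day 1, between 289 and 1151 CPM on LP day 7, and between 921 and 1580 CPM on LP day 28. All 6 samples of LP day 28 were thus above every SP sample, as for 1.11% of genes tested, although the log2 fold change of 1.75 (SE 0.41) had an FDR of 0.0615 in edgeR's quasi-likelihood test. The exact test and DESeq2 called it, with FDRs of 0.00546 and 0.0420. Against LP day 1, TSHB on LP day 28 was higher by 2.25 (SE 0.18, FDR 5.51e-07). On LP day 7, where CHGA was called lower than on SPs, TSHB stood at 0.74 (SE 0.48, FDR 0.510).

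Of the 7 measured genes of the thyrotroph relay, 1 was higher on LP day 28 than on SPs, and 6, among them TSHB, CGA, the thyrotropin receptor TSHR, and the clock output factor TEF, did not pass edgeR's quasi-likelihood test, by which 0.422% of all genes tested were higher and 0.67% passed in either direction. The gene that passed was EYA3, at 31.9 ± 6.02 CPM on SPs (SD, n = 5) and 191 ± 196 CPM on LP day 28 (SD, n = 6), a log2 fold change of 2.57 (SE 0.57, FDR 0.0481 in that test). Its call was lost under 9 of 19 other settings and held in 3 of 11 fits with 1 sample left out.

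The ratio of CHGA to TSHB counts joined both movements. On SPs it was 20.7, 5.47, 55.9, 4.44, and 13.5 in samples 1 to 5. It ranged from 7.44 to 19.7 on LP day 1, from 1.13 to 5.62 on LP day 7, and from 0.598 to 1.05 on LP day 28, below every SP sample. Its geometric mean was 13.1, 10.8, 2.77, and 0.856 in that order. The log2 difference from SPs was -0.27 on LP day 1 (SE 0.69, adjusted p = 0.779, exact permutation test). On LP day 7 it was -2.23 (SE 0.73, adjusted p = 0.0234, exact permutation test), with 5 of 6 samples below the lowest SP sample, and the call was lost without SP sample 1, 3, or 5 (adjusted p = 0.0514 each). On LP day 28 it was -3.93 (SE 0.68, adjusted p = 0.0130, exact permutation test), with 6 of 6 samples below.

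Within a group, no relation of CHGA to TSHB passed a test. Exact permutation tests over the 6 samples of each LP day gave an r of log2 CPM of 0.38 on LP day 1 (p = 0.442; rho 0.37, p = 0.497), -0.02 on LP day 7 (p = 0.951; rho -0.31, p = 0.564), and 0.53 on LP day 28 (p = 0.281; rho 0.37, p = 0.497). Without the 2 samples farthest from the median CHGA level, r was 0.30, 0.10, and 0.69. Over the deviations of all 23 samples from their group means, r was 0.21 (p = 0.339) and rho 0.23 (p = 0.294) by permutation within groups, and r was 0.20 without the 2 farthest samples. All adjusted p-values over the 24 relations computed were 0.40 or more, and 6 samples leave wide room for a relation of either sign. On SPs, with 5 samples, no correlation was computed. SP sample 3 had the lowest CHGA and the lowest TSHB of its group, whereas sample 1 joined the highest CHGA to 207 CPM of TSHB and sample 4 joined 2776 CPM of CHGA to 625.5 CPM of TSHB.

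**Figure D3:**
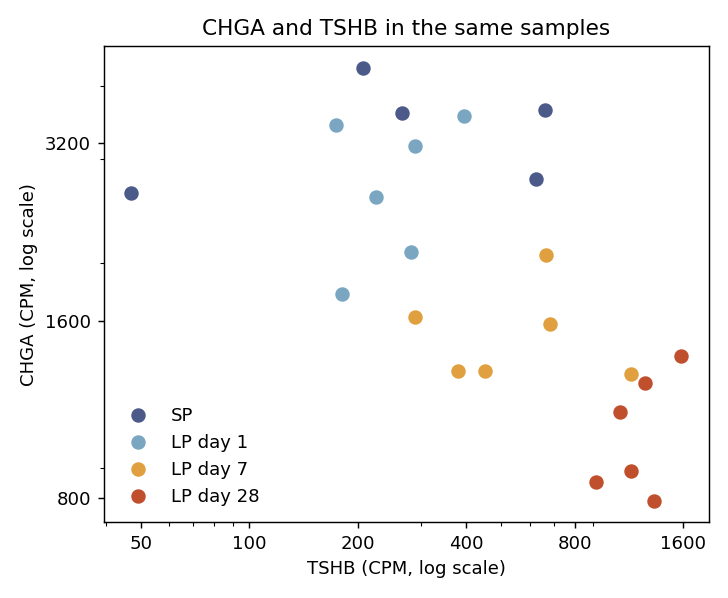
CHGA (vertical) against TSHB (horizontal) in CPM, both on log axes, with 1 point per sample colored by group. The groups run from the upper left (SP and LP day 1) to the lower right (LP day 28, CHGA 793 to 1391 and TSHB 921 to 1580 CPM). Within a color no line was fitted, and r is 0.38, -0.02, and 0.53 on LP days 1, 7, and 28.

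CHGA did not split by the state of CRY1, a clock gene that nocturnal melatonin induces in the PT. CRY1 split the samples of every group into 2 sets, at 16.9 to 34.5 CPM and at 138 to 406 CPM, with no sample near the 80 CPM that divides them. SP samples 2, 4, and 5 and LP day 1 samples 2, 3, 4, and 5 were above it. On LP days 7 and 28 the samples with even numbers were above it and those with odd numbers below, and what the numbers stand for is not given in the labels. CHGA overlapped between both sets in every group. Samples above against below 80 CPM of CRY1 spanned 2776 to 3632 against 2629 to 4292 CPM of CHGA on SPs, and 1774 to 3548 against 2092 to 3434 CPM on LP day 1. They spanned 1299 to 2069 against 1313 to 1626 CPM on LP day 7, and 793 to 1256 against 889 to 1391 CPM on LP day 28. EYA3 overlapped between both sets on SPs, at 23.02 to 35.97 against 28.3 to 37.1 CPM, but not on LPs. It stood at 20.4 to 53.7 against 60.4 to 75.6 CPM on LP day 1, 30.9 to 41.2 against 332 to 969 CPM on LP day 7, and 37.6 to 58.5 against 123 to 471 CPM on LP day 28. TSHB did not overlap on SPs, at 265 to 664 against 47.0 to 207 CPM, or on LP day 7, at 666 to 1151 against 289 to 452 CPM. It overlapped on LP day 1, at 181 to 394 against 174 to 281 CPM, and on LP day 28, at 921 to 1326 against 1070 to 1580 CPM. Its log2 fold change on LP day 28 against SPs was 1.16 in samples above (SE 0.27, FDR 0.136 in edgeR's quasi-likelihood test) and 3.30 in samples below (SE 0.47, FDR 0.0162), and the difference between both sets was not tested. Sets this small, of 2 to 4 samples, can fail to overlap by chance. The share of all genes that did not overlap was not computed, so these splits of EYA3 and TSHB are given as a description.

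The decrease in CHGA was seen in both CRY1 sets. In samples above 80 CPM of CRY1, the log2 fold change against SPs was -1.01 on LP day 7 (SE 0.17), where the FDR of edgeR's quasi-likelihood test was 0.109 with 3 samples a group, and -1.79 on LP day 28 (SE 0.18, FDR 0.00105). In samples below, it was -1.30 on LP day 7 (SE 0.19, FDR 0.0461) and -1.62 on LP day 28 (SE 0.21, FDR 0.00993), with 2 SP samples. A test of the difference between both sets, added after the data were seen, gave 0.29 on LP day 7 (SE 0.29, FDR 0.988 in edgeR's quasi-likelihood test) and -0.17 on LP day 28 (SE 0.32, FDR 0.981). With CRY1 state as a covariate the changes were -1.14 (FDR 0.00234) and -1.71 (FDR 2.35e-05). On LP day 1 the values in the 2 sets were -0.27 and -0.34, neither of them called. The r between deviations of CHGA and CRY1 from the group means was -0.00212 over 23 samples (p = 0.992 by permutation, rho 0.000988).

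The spread of CHGA within groups was below that of TSHB, PRL, EYA3, and CRY1 but above that of most highly expressed genes. The pooled SD of its log2 CPM around the group means was 0.33, against 0.31 for CHGB, 0.37 for CGA, 0.84 for TSHB, 1.03 for PRL, 1.41 for EYA3, and 1.75 for CRY1. It was still above the median of 0.18 over the 2097 genes with a mean of at least 100 CPM, 92.0% of which had a smaller SD. CHGA was thus steadier than TSHB and EYA3 but varied more between samples of a group than most genes of high expression.

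The genes with a symbol whose levels ran most like CHGA were, by r of log2 CPM over all 23 samples, AGER (0.86), NPSR1 (0.84), KLHDC8B (0.81), FAM171A2 (0.79), THRA (0.76), BFSP2 (0.74), UQCC2 (0.71), FTH1 (0.70), KLHL40 (0.69), and CRABP2 (0.68). The samples share their groups and their library composition, so these values include the differences between photoperiod groups and are given as a description. AGER, the receptor for advanced glycation end products, was the most like CHGA of all 15652 genes ranked, of which 1120 had a symbol. Its group means were 22.4, 18.5, 9.76, and 9.44 CPM from SPs to LP day 28, and its r with CHGA over deviations from the group means was 0.63. That was the highest such r of the 10 genes. It was 0.28 for NPSR1, 0.19 for KLHDC8B, and lowest, at 0.07, for BFSP2. NPSR1, the neuropeptide S receptor, went from 7.82 to 0.884 CPM, KLHDC8B, a kelch-repeat protein, from 132 to 86.7 CPM, and CRABP2, a retinoic acid binding protein, from 27.8 to 15.8 CPM. On LP day 28, NPSR1 and KLHL40 (1.04 CPM) lay within the 0.680 to 1.62 CPM that correspond to 3 counts, near the floor. THRA, the thyroid hormone receptor alpha gene, went from 308 to 227 CPM; its end overlaps NR1D1 on the other strand in mammals, and whether the counting used strand is not given in the sources used here.

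The genes that ran most opposite to CHGA were OGT (-0.85), BPIFC (-0.85), CNTN1 (-0.82), CYP4V2 (-0.81), and VMO1 (-0.81). BPIFC averaged only 0.168 CPM on SPs and 0.182 CPM on LP day 1, less than 3 counts reach in the deepest sample (0.680 CPM). It passed the filter through LP days 7 and 28, at 2.70 and 6.85 CPM, so its r rests on values near the floor. OGT, the enzyme that adds O-linked N-acetylglucosamine to proteins, was the most opposite of all genes ranked, with means of 131, 145, 169, and 202 CPM and an r of -0.62 over deviations. VMO1 went from 12.3 to 248 CPM and CNTN1, a neuronal adhesion protein, from 150 to 309 CPM. VMO1 opposed CHGA between groups but not between samples of a group, where its r over deviations was 0.38. That r was -0.18 for BPIFC, -0.31 for CNTN1, and -0.06 for CYP4V2. TSHB had an r with CHGA of -0.63 over all samples and 0.21 over deviations, and EYA3 of -0.48 and 0.00294.

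The course of CHGA was steady under the processing choices tried. Over 19 other settings, the log2 fold change on LP day 28 against SPs lay between -1.79 and -1.58 and stayed called in each. On LP day 7 it lay between -1.30 and -1.01 and stayed called in 18 of 19, the exception being the samples with CRY1 above 80 CPM alone. Leaving out each sample in turn kept both calls in all 11 fits of each comparison, with ranges of -1.79 to -1.59 and -1.26 to -1.05.

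**Figure D4:**
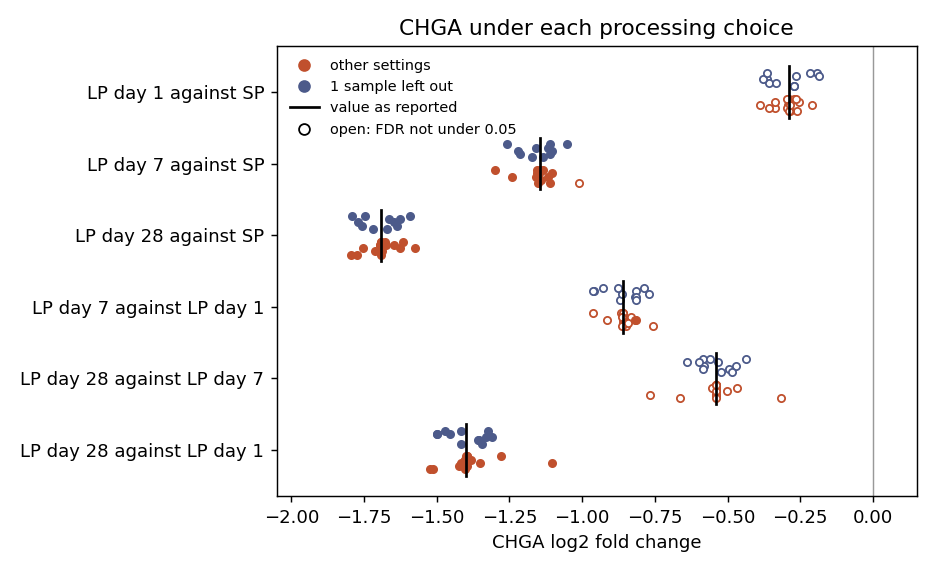
CHGA log2 fold change (horizontal axis) in the 6 comparisons of groups (rows). Black bars are the values as reported, red points other processing settings, blue points fits with 1 sample left out, and open points did not pass an FDR of 0.05. All points lie left of 0, and on LP day 28 against SP all are filled, between -1.79 and -1.58.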

How the data were processed

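The authors deposited whole-number counts of reads per Ensembl sheep gene for 23 PT samples. The submitters' processing notes name Bowtie, HTSeq, and the build Oar_v3.1, whereas the file headers look like those of featureCounts, so the counting program remains unsettled. Total counts ran from 307952 to 4413929, and 3 counts correspond to 0.680 to 1.62 CPM, or 9.74 CPM in the shallowest sample. Groups and numbers follow the sample labels.

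Each pair of groups was compared in R 4.3.3 with edgeR 4.0.16, using TMM normalization, a filter that kept genes above 1 CPM in a number of samples equal to the size of the smaller group, the quasi-likelihood test, and an FDR under 0.05 (Benjamini-Hochberg over all genes tested). Standard errors are the log2 fold change over the square root of F. CPM of single samples are TMM normalized over all 23 samples. Ratios of counts (pseudocount 0.5) and correlations of log2 CPM were tested by two-sided permutation of samples (SciPy 1.17.1), exact for groups of 6 or fewer and with 100000 draws within groups for the 23 deviations. The tests were checked on simulated data.

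Symbols were paired with identifiers through the study's gene tables, for 1259 genes, and 29 symbols belong to more than 1 identifier. CHGA and all gene lists were chosen with earlier results of these data known. The genes named are members that passed against SPs at LP day 7 or 28, a fixed set of hormone, granin, and processing genes, and the 10 most like and 5 most opposite to CHGA among genes with a symbol and above 1 CPM in 5 samples. CPD, CPZ, PTPRN, SYT4, SYT5, UNC13A, EGR1, MTNR1A, and the other cell markers lie outside this rule and were named after their values were seen. Alternatives were DESeq2 1.42.0, edgeR's exact test, limma 3.58.1 with voom, other normalizations and filters, subsets, covariates, and samples left out. Positions and sequences are not given, since no genome of the files' build was used here.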

Additional observations from a re-analysis of the deposited data

Results flagged for a closer look

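Of 44 groups of values checked for a sample far from the rest of its group, 1 stood out. EYA3 in LP day 7 sample 1 was at 969 CPM, and the next highest sample of that day was at 381 CPM. The gap was 0.627 of the whole range, just over the critical value of 0.625 for 6 samples. Chance alone marks about 1 in 20 such groups where the values come from 1 normal population. EYA3 on LP day 7 split by CRY1 state, at 30.9 to 41.2 against 332 to 969 CPM, so that rate need not hold for this flag. CHGA in the same sample was 1317 CPM, within the range of LP day 7, and no CHGA value of any group stood out by this measure.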

How the results depend on the processing

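CHGA kept its direction and its side of the threshold in every setting run for LP day 1 (-0.39 to -0.21, or -0.38 to -0.19 leaving out each sample in turn), LP day 28 against SPs, LP day 28 against LP day 7 (-0.77 to -0.32, or -0.64 to -0.44), and LP day 28 against LP day 1 (-1.52 to -1.10, or -1.50 to -1.31). On LP day 7 against SPs the call was lost only among samples with CRY1 above 80 CPM (-1.01). LP day 7 against LP day 1 became a call with the exact test (-0.86), DESeq2 (-0.86), PRL as a covariate (-0.82), and without LP day 1 sample 2 (-0.96, FDR 0.0381), and leaving out each sample in turn gave -0.96 to -0.77. With SP samples 2, 3, and 5 alone, where 3 against 6 samples cannot give a p under 0.0238, the ratio calls were lost: -2.53 and -4.23 against TSHB on LP days 7 and 28, -0.73 and -1.67 against CGA, and -2.86 against PRL on LP day 28. Leaving out each sample in turn, the log2 ratio to TSHB ranged from -0.66 to 0.26, -2.62 to -1.71, and -4.32 to -3.41 on LP days 1, 7, and 28, that to CGA from -0.43 to -0.10, -0.98 to -0.72, and -1.92 to -1.65, and that to PRL from -0.44 to 0.37, -1.32 to -0.66, and -3.10 to -2.46. On LP day 1 the TSHB ratio turned to 0.26 without SP sample 3, and the PRL ratio to 0.11 without SP sample 1, 0.22 without SP sample 5, 0.37 without LP day 1 sample 2, and 0.11 without LP day 1 sample 5. The r of CHGA with TSHB on LP day 7 turned to 0.10 without the 2 farthest samples. The cause was not tested.

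Sample numbers are not said to pair animals, and correlations of same-numbered samples ran from -0.28 to 0.62 with no comparison above 0.1 throughout, and in no comparison did every sample correlate best with its own number. With the number as a replicate block, CHGA stood at -0.39, -1.24, and -1.75 against SPs on LP days 1, 7, and 28. No CHGA call changed in any comparison, and those of BAIAP3 and EYA3 against SPs were lost. Against SPs, genes called went from 40 to 165 on LP day 7 and from 100 to 40 on LP day 28. They went from 1 to 6 on LP day 28 against LP day 7. The SP group has no sample 6, so the block fits against SPs also lacked sample 6 of each LP day. Without that sample and with no block, 113 genes were called on LP day 7 and 46 on LP day 28, and CHGA stood at -1.26 on LP day 7. Over all settings, genes called ranged from 0 to 7, 6 to 350, and 27 to 347 on LP days 1, 7, and 28 against SPs, from 1 to 17 on LP day 7 against LP day 1, from 0 to 37 on LP day 28 against LP day 7, and from 17 to 83 on LP day 28 against LP day 1. Depth does not limit CHGA, with at least 1064 counts a sample.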
